A study of Mus musculus with 2 samples.

Results

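The inhibitory receptors of myeloid cells are described here as 10 genes, chosen by name, of 21938 protein-coding genes in GENCODE release M21: Sirpa, Cd47, Pirb, Lilrb4a, Pilra, Siglec1, Cd33, Siglece, Cd200r1 and Lair1. The measured mark was H3K4me3, histone H3 trimethylated on lysine 4, which is found at active and poised promoters. Chromatin of unstimulated macrophages, grown from C57BL/6J bone marrow, was immunoprecipitated and sequenced. The study had 1 group with 2 biological replicates, each starting from 10 ng of DNA. They have separate biosample entries but share 1 donor entry, and the labels give no age or sex and do not say whether separate animals were used. The spread between them, and every SD below, may therefore be technical. For each gene, peaks within 10 kb of any annotated transcript start were collected from the list of each replicate and from 2 lists of the whole series: a pooled list, called on the alignments of both replicates, and a replicated list.

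Inhibitory receptors set the threshold at which a phagocyte responds. Most carry tyrosine motifs in the cytoplasmic tail that recruit the phosphatases encoded by Ptpn6 and Ptpn11 or the lipid phosphatase encoded by Inpp5d, and so dampen signals from activating receptors. SIRPα, the product of Sirpa, binds CD47 on other cells and restrains their engulfment. Cd47 thus encodes the ligand, and the other genes of the set encode receptors for MHC class I (Pirb), sialylated glycans (Siglec1, Cd33, Siglece), the membrane protein CD200 (Cd200r1) and collagens (Lair1), together with the immunoglobulin-like receptors of Lilrb4a and Pilra.

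The mark was present at most of these genes. A peak within 1 kb of a start, called marking below, was found in both replicates at 8 of the 10 genes, against 49.5% of all protein-coding genes. In the replicate 1, pooled and replicated lists taken singly, 9 of the 10 genes were marked, against 53.5%, 52.7% and 51.3% of coding genes. Pilra was marked in replicate 1 only, as were 4.0% of coding genes, and Siglece had no peak within 10 kb in any of the 4 lists, as had 41.1%. Widening the search to 10 kb added no gene, and 8 of 10 had a peak in both replicates at that distance too, against 54.4% of coding genes. None of the promoter peaks of the 8 marked genes in replicate 1 lay within 1 kb of a start of another gene of any type, whereas this was so at 40.5% of marked coding genes.

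The label of the cells was checked against marker genes. All 10 macrophage marker genes examined, among them Csf1r, Adgre1 and Spi1, were marked in both replicates. None of 8 neutrophil, 5 B cell, 5 dendritic cell, 4 mast cell or 5 fibroblast markers was marked in both. In replicate 1 alone a peak lay at the B cell gene Cd79b, with a fold of 4.18, and at the dendritic cell gene Zbtb46, with a fold of 3.74. Of 6 protein-coding markers of T and NK cells only Cd3d was marked, with folds of 15.9 and 3.52. The lists held 20031 peaks in replicate 1 and 16376 in replicate 2, and sequencing depth is unknown.

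**Figure D1:**
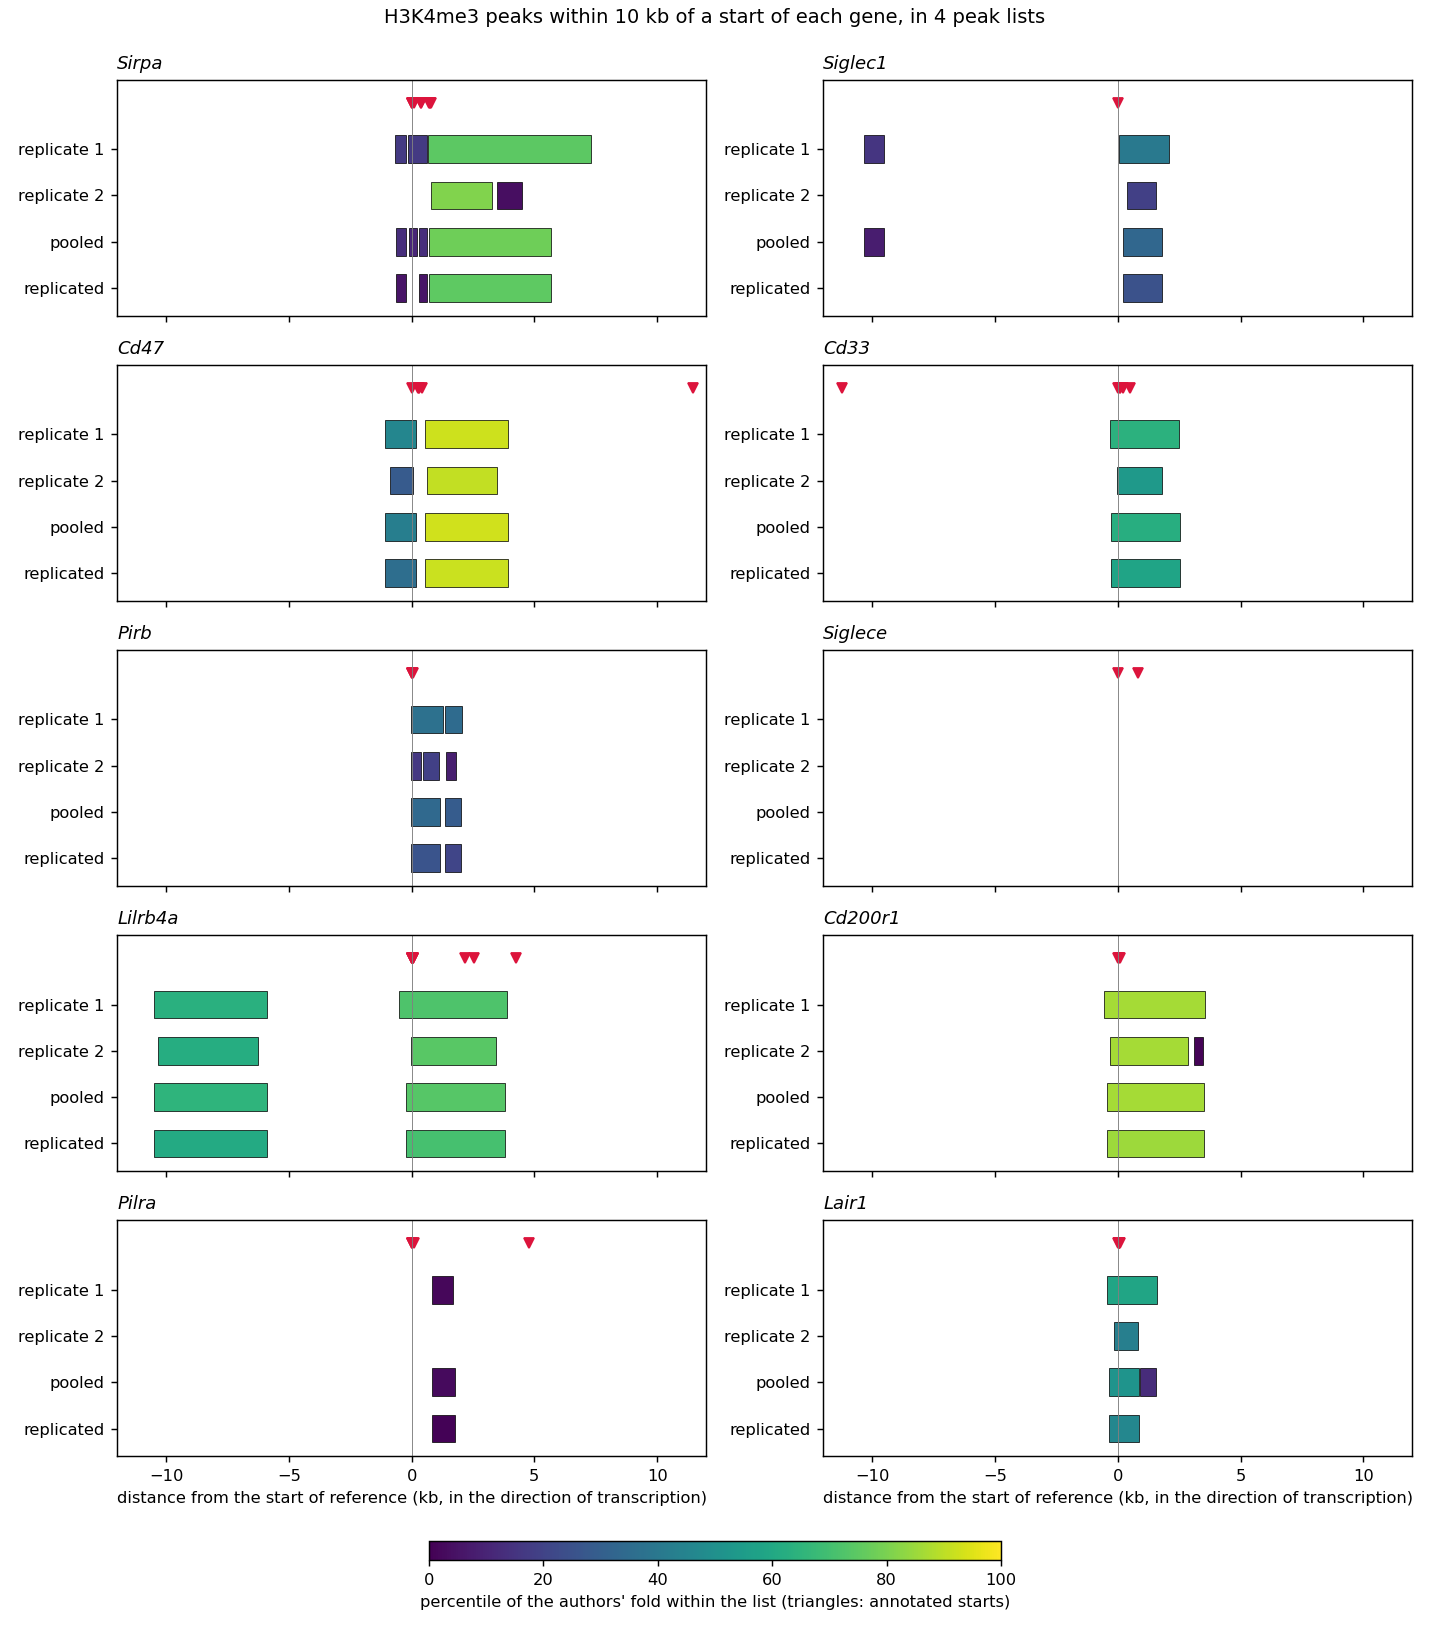
H3K4me3 peaks within 10 kb of a start of each gene in the 2 replicate lists, the pooled list and the replicated list, drawn by distance in kb from a start of reference in the direction of transcription. Bars are peaks, coloured by the percentile of the authors' fold within the list, and triangles are annotated starts. The reference is the most upstream start near the marked domain, or the 5′ end of the gene for Siglece. Peaks lie mainly to the right of the start, and Siglece has none.

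Sequences before 4 starts show promoters on which the pattern turned: Pirb with its short peaks, both starts of Cd33, of which only the internal one was marked, and the unmarked Siglece. Each is the 200 bases before an annotated start, 5′ to 3′ on the strand of the gene, in GRCm38.p6 (mm10), and that before the internal start of Cd33 includes 7 exon bases. Capitals mark GAGGAA on either strand (TTCCTC on the other), the PU-box core that the myeloid transcription factor PU.1 is known to bind.
Pirb, chr7:3720392-3720591, minus strand: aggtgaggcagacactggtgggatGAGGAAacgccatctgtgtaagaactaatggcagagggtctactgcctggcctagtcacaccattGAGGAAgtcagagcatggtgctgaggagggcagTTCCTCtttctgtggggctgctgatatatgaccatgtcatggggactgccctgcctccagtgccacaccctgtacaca
Cd33, marked internal start, chr7:43533172-43533371, minus strand: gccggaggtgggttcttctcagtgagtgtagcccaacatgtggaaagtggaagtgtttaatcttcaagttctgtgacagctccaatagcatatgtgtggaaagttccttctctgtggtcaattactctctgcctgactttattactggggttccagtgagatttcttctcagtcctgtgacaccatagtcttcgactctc
Cd33, upstream start without a peak, chr7:43544429-43544628, minus strand: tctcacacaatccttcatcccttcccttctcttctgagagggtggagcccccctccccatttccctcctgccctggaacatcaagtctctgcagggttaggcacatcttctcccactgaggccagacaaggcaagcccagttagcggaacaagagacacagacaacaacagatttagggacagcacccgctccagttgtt
Siglece, chr7:43660162-43660361, minus strand: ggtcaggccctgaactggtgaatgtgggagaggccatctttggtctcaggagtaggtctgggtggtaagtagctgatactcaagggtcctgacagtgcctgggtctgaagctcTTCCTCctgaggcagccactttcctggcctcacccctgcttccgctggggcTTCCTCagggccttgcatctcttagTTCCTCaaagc

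GAGGAA occurred 3 times before the start of marked Pirb and 3 times before the start of unmarked Siglece, and not at all before either start of Cd33. Over the whole set, the 200 bases before the start (the marked one at Cd33 and Cd47, whose other windows gave the same answer) held it at 5 genes of 10 (Sirpa, Cd47, Pirb, Siglece and Lair1), compared with 18.8% of all coding genes and 18.4% of marked coding genes. The longer GAGGAAGT, which contains GAGGAA, occurred only before Pirb, and 2.06% of all and 2.19% of marked coding genes held it. No window of these genes held TATAAA, which 9.29% of all and 4.72% of marked coding genes held. These matches describe letters in a window and are not evidence of binding.

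The 5′ ends of these genes were mostly poor in CpG, and yet most of the genes were marked. The CpG observed/expected ratio in the 1 kb to each side of the 5′ end was in the lowest tertile of coding genes (at most 0.278) at 8 of the 10 genes. Of these 8, 6 were marked at some start in both replicates, against 12.1% of coding genes in that tertile. Cd33 and Cd47 are among the 6 through an internal start only, and their 5′ ends had no peak within 1 kb. The 5′ end itself was marked at Pirb, Lilrb4a, Siglec1 and Lair1. In the middle tertile 56.1% of coding genes were marked and in the highest 80.5%. Lilrb4a had a ratio of 0.079 and Pirb of 0.111, compared with a median of 0.624 over marked coding genes and 0.232 over the others. Siglece, with 0.191, was richer in CpG than the marked genes Siglec1 (0.174), Cd33 (0.118), Pirb and Lilrb4a, so the ratio did not separate the marked from the unmarked genes of the set. Pilra had the lowest ratio, 0.0466.

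Cd47 changed place when its marked start was used. The ratio was 0.248 at the 5′ end of the gene, which had no peak, and 0.643 at the marked internal start, in the highest tertile. Cd33 stayed in the lowest tertile at its marked internal start, with 0.153. Cd200r1, with 0.467, lay in the middle tertile and Sirpa, with 0.659, in the highest.

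**Figure D2:**
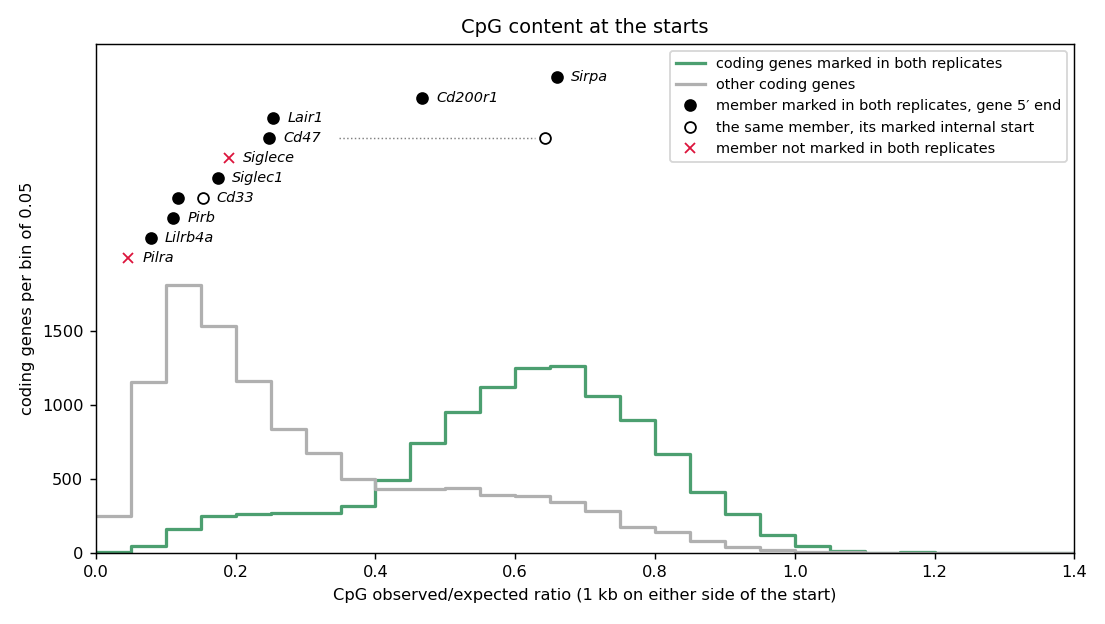
CpG observed/expected ratio (x axis) in the 1 kb to each side of the 5′ end, for coding genes marked in both replicates and for other coding genes, as numbers of genes per bin of 0.05. Points above the curves place the 10 genes and their height carries no value. Most of the marked genes of the set (filled circles) lie at the low ratios where most of the other coding genes are, and open circles give the marked internal starts of Cd33 and Cd47.

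Sirpa and Cd47, the receptor and its ligand, had the widest promoter domains by their means when neighbouring peaks were joined. Without joining, Cd47 (3128 bp) came after Sirpa (4564.5 bp), Lilrb4a (3932 bp) and Cd200r1 (3641.5 bp). The order at the top was not the same in both replicates, however: Sirpa was widest in replicate 1, and in replicate 2 Cd47 and Cd200r1 were wider than Sirpa. Peaks less than 1000 bp apart were counted together as 1 domain. At Sirpa this domain measured 8019 bp in replicate 1 and 3717 bp in replicate 2, a mean of 5868 ± 3042 bp (SD, n = 2), at the 99.2nd percentile of marked coding genes. The replicates differed there more than at any other gene of the set. Sirpa (chr2:129592835-129632228, plus strand) had 11 distinct starts, of which 10 lay within 778 bp of the 5′ end and were marked in both replicates, and the last, 27850 bp downstream, was not marked. Its main peak lay at chr2:129593520-129600159 in replicate 1 and chr2:129593604-129596092 in replicate 2, with folds of 38.4 and 17.6 and the summit in an intron in each. All 10 clustered starts lay inside a peak in replicate 1. In replicate 2, however, only the most downstream of them did, since the peak began 769 bp after the 5′ end of the gene. In replicate 1 the 6 most upstream starts were covered by a peak of 799 bp, and a further peak of 467 bp ended 228 bp before the first start. Both had a fold of 5.98, and the list of replicate 2 held neither.

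Cd47 (chr16:49800533-49915010, plus strand) had a domain of 5042 bp in replicate 1 and 4351 bp in replicate 2, a mean of 4696.5 ± 489 bp (SD, n = 2). Both replicates showed the same form, a weaker peak upstream and a stronger one downstream of a gap. The upstream peak had a fold of 18.9 in replicate 1 and 6.63 in replicate 2, and the downstream peak 50.4 and 20.8. The gap measured 333 bp and 546 bp, and 4 of the 5 starts of this cluster lay in it. Of marked coding genes, 29.0% had more than 1 peak in the domain of both replicates, and so did 3 of the 8 genes here, Sirpa, Cd47 and Pirb. That count takes a gap anywhere in the domain, so it does not tell how common a gap holding starts is. The cluster lay 54833 bp inside the annotated gene. The start at the 5′ end was 18120 bp from the nearest peak of replicate 1, and the most downstream start was 7533 bp from one.

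Cd200r1, which encodes the CD200 receptor, and Lilrb4a followed. Cd200r1 (chr16:44765736-44794978, plus strand) had a domain of 4095 bp in replicate 1 and 3790 bp in replicate 2, a mean of 3942.5 ± 216 bp (SD, n = 2). Its 3 starts lay inside the main peak in both replicates, with folds of 46.2 and 19.2. Lilrb4a (chr10:51490956-51496611, plus strand) had 4415 bp and 3449 bp, a mean of 3932 ± 683 bp (SD, n = 2), with folds of 36.6 and 15.9. Here 1 unbroken peak covered 11 of the 12 starts in each replicate, those of retained-intron transcripts 2166 and 2559 bp downstream included, and the remaining start lay 363 bp from it in replicate 1. The mean widths of Cd200r1 and Lilrb4a differed by less than the SD of either.

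The other 4 marked genes had narrower domains. Cd33 had 2834 bp in replicate 1 and 1844 bp in replicate 2 (mean 2339 ± 700 bp, SD, n = 2). Pirb had 2073 and 1829 bp (mean 1951 ± 173 bp, SD, n = 2), and without joining its peaks, 2 in replicate 1 and 3 in replicate 2, the mean was 974 bp. Siglec1, which encodes the macrophage lectin sialoadhesin, had 2075 and 1194 bp (mean 1634.5 ± 623 bp, SD, n = 2), and Lair1 had 2019 and 993 bp (mean 1506 ± 725 bp, SD, n = 2). Among these 4, neighbours in the order of the means differed by less than the larger of their SDs. In each replicate, however, all 4 were narrower than Sirpa, Cd47, Cd200r1 and Lilrb4a: at most 2834 against at least 4095 bp in replicate 1, and at most 1844 against at least 3449 bp in replicate 2. This division was seen in the data and not tested.

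The median width over the 8 marked genes was 3464.5 bp in replicate 1 and 2646.5 bp in replicate 2, beside 2149 and 1741 bp over all marked coding genes. Of the 8, 6 lay above the median of marked coding genes, 1946.5 bp, Cd33 and Pirb by less than their SDs. All 8 were wider in replicate 1, by a ratio of 1.08 at Cd200r1 to 2.16 at Sirpa. The replicate 1 list also held more peaks, and the part of this in the difference was not tested.

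**Figure D3:**
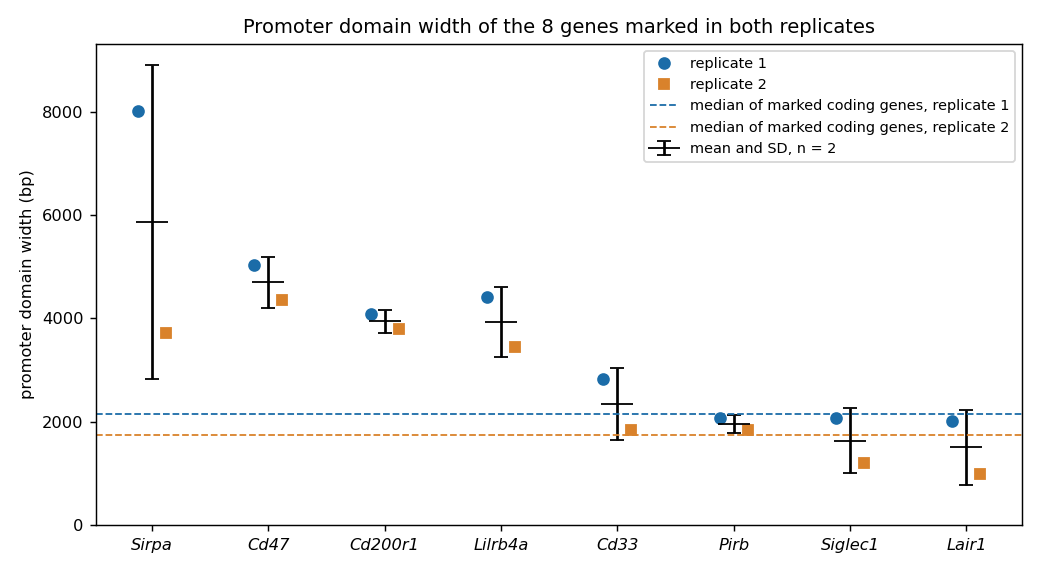
Promoter domain width in bp (y axis) of the 8 genes marked in both replicates. Circles and squares are the replicates, bars the mean and SD (n = 2), and dashed lines the medians over all marked coding genes in each replicate. Sirpa, Cd47, Cd200r1 and Lilrb4a lie above both lines in both replicates.

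The 4 genes of widest domain also had the 4 highest folds in each replicate. Folds were taken from the authors' lists, peak by peak, and compared only within a list. The peak of highest fold within 1 kb of a start stood at the 92.3rd percentile of all peaks at Cd47 in replicate 1 and at the 91.0th in replicate 2. Cd200r1 followed at 86.7 and 86.5, Sirpa at 74.9 and 81.1, and Lilrb4a at 72.2 and 74.2. Cd33 (63.8 and 53.6), Lair1 (58.6 and 42.8), Siglec1 (40.3 and 19.1) and Pirb (36.8 and 19.1) stood lower in replicate 2 than in replicate 1. The 4 upper genes thus kept their place between the replicates within 6.2 percentile points. Of the 4 lower ones Cd33, the least changed, fell by 10.2 points. The median over the 8 genes was at percentile 68.0 in replicate 1 and 63.9 in replicate 2, beside 75.7 and 69.6 over all marked coding genes. On this measure the set stood below the median of marked genes, while its median width stood above it.

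**Figure D4:**
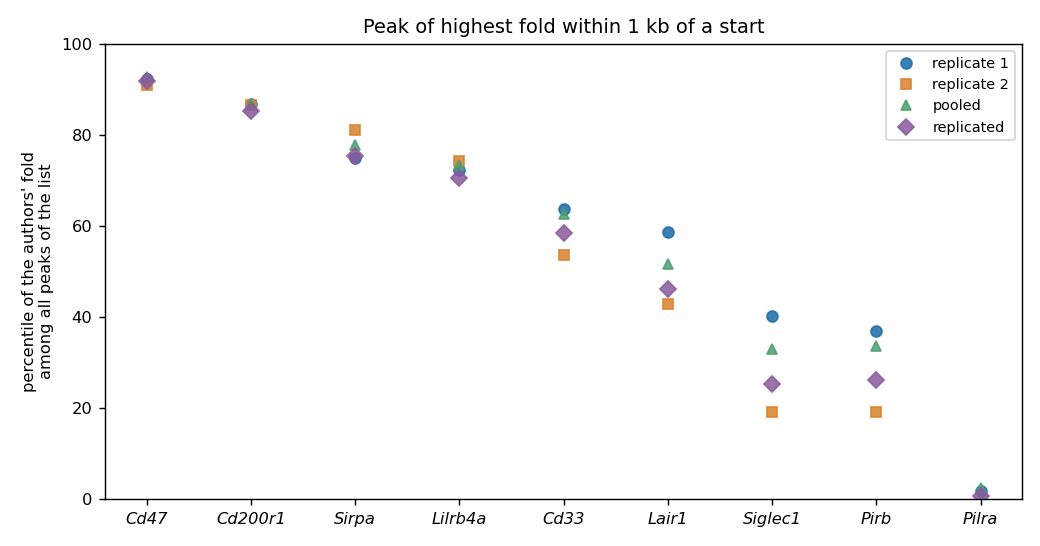
Percentile of the authors' fold among all peaks of each list (y axis, 0 to 100) for the peak of highest fold within 1 kb of a start of each gene, in the 4 lists. Cd47 and Cd200r1 lie above 85 in every list and Pilra below 3 in the 3 lists that hold its peak.

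The mark spread downstream from the start. Measured from the most upstream start near the domain, between 78.0% (Cd47) and 100% (Siglec1) of the domain lay downstream in replicate 1 and between 79.6% and 100% in replicate 2. The median over the 8 genes was 88.2% and 98.5%, beside 67.8% and 70.8% over all marked coding genes, of which 83.3% and 82.6% had most of the domain downstream. Of marked coding genes, however, 40.5% had replicate 1 promoter peaks within 1 kb of a start of another gene, and none of the 8 did. The part of this in the difference was not tested. At Pirb (chr7:3711409-3720391, minus strand) the domain reached only 38 bp upstream in replicate 1 and 16 bp in replicate 2. At Siglec1 (chr2:131069220-131086765, minus strand) the single annotated start lay outside the peak, which began 28 bp downstream of it in replicate 1 and 376 bp downstream in replicate 2. Siglec1 was the only one of the 8 genes with no start inside a peak of either replicate, as were 15.6% of marked coding genes.

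The summits of the highest peaks in the 2 replicates lay between 1 and 205 bp apart at these genes. They were 1 bp apart at Pirb, 3 bp at Lilrb4a, 12 bp at Cd47, 32 bp at Lair1 and 35 bp at Cd200r1. Larger distances of 78 bp at Cd33, 125 bp at Sirpa and 205 bp at Siglec1 were found. The median over marked coding genes was 27 bp, and only Pirb, Lilrb4a and Cd47 lay below it. In replicate 1 the summit lay farthest downstream of the start at Sirpa, 1124 bp, and nearest at Lair1, 223 bp, in an intron at both. That at Pirb, also in an intron, lay 895 bp downstream. The median distance over marked coding genes was 437 bp, and only Cd33, Cd200r1 and Lair1 lay below it.

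Alternative starts of the same gene differed in marking. Of the 60 distinct starts of the 10 genes, 52 were marked in replicate 1 and 48 in replicate 2, and the 4 that differed were those of Pilra. Many of these starts shared a peak, as at Lilrb4a, where 1 peak covered 11 of 12, so they are not separate promoters. The share of starts marked over all coding genes was not computed. Cd33 (chr7:43524216-43544428, minus strand), a sialic acid-binding receptor gene, had an upstream start, used by 1 protein-coding transcript, and a cluster of 5 starts 11257 to 11750 bp further in. All 5 lay inside the peak in both replicates (chr7:43530674-43533507 in replicate 1 and chr7:43531366-43533209 in replicate 2). The upstream start was 10921 bp from the nearest peak in replicate 1 and 11219 bp in replicate 2. Cd33 and Cd47 were the 2 marked genes whose 5′ end had no peak within 1 kb in either replicate, as had 5.7% of marked coding genes. Lair1 (chr7:4003402-4063204, minus strand) showed the opposite order: its 8 starts within 88 bp of the 5′ end lay inside the peak in both replicates, and the start of a processed transcript 36156 bp downstream lay 34574 bp from the nearest peak of replicate 1.

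Pilra (chr5:137821952-137836281, minus strand) had the lowest fold when each gene was taken by its highest peak within 1 kb of a start. Its only peak, chr5:137834598-137835471 in replicate 1, lay in the gene 716 bp from the nearest start, with the summit in an intron and a fold of 3.36, at percentile 1.77 of that list. The nearest peak in replicate 2 was 43729 bp away, at Mepce. The pooled and the replicated lists each held a Pilra peak of fold 3.01, although the list of replicate 2 did not. Of the peaks of the replicated list, 11.5% overlapped no peak in the list of replicate 2. Siglece (chr7:43651070-43660161, minus strand), an inhibitory sialic acid-binding receptor gene, lay 11320 bp from the nearest peak of replicate 1 and 11592 bp from that of replicate 2, which covered the start of Ctu1, a neighbouring gene.

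Further peaks within 10 kb were few. Of 15 peaks within 10 kb of the set in replicate 1 and 14 in replicate 2, 12 and 10 lay within 1 kb of a start, and 1 in each list was nearest to the start of another gene. This was the domain of the neighbouring genes Lilr4b and Gm49339, of which Gm49339 (chr10:51480612-51496613, plus strand) spans Lilrb4a as well. It lay 5901 bp upstream of Lilrb4a in replicate 1 and measured 4600 bp with a fold of 30.9 there, and 4088 bp with a fold of 13.3 in replicate 2. A peak 9537 bp upstream of Siglec1 (chr2:131096302-131097118) had a fold of 5.66 in replicate 1 and was in the pooled list, but not in those of replicate 2 or the replicated peaks. The remaining ones were parts of the Pirb, Sirpa and Cd200r1 domains.

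Several of the genes belong to families of near-identical copies, and how the authors treated reads that align to more than 1 place was not given in the sources used here. The window of 1 kb on either side of the Lilrb4a start aligned with that of Lilr4b at 90.7% identity over 2042 positions, Pirb with Pira2 at 95.2% over 1641, and Pilra with Pilrb1 at 94.9% over 2002 and with Pilrb2 at 95.8% over 1995. The values of Lilrb4a, Pirb and Pilra are uncertain for that reason. The start windows of Sirpa and Cd200r1 gave no alignment with those of the Sirpb1 genes or of Cd200r2, Cd200r3 and Cd200r4.

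The relatives of these receptors, many of them activating partners, were listed under 20 names, of which 15 were found in the annotation as protein-coding genes. Of these 15, 1 was marked in both replicates, against 49.5% of coding genes, 4 in replicate 1 only, against 4.0%, and 10 in neither. Lilr4b, the close copy of Lilrb4a, is not among the 15, because the list names it Lilrb4b and that name was not matched. Its start was marked in both replicates by the domain of 4600 and 4088 bp given above, and with it 2 of 16 relatives were marked, a count added after the data were seen. Among the 15 the gene marked in both was Cd200r4, with domains of 1717 and 1369 bp (mean 1543 ± 246 bp, SD, n = 2), narrower in each replicate than those of Cd200r1. Cd200r2, Cd200r3 and Lilra5 were among those marked in neither. The peaks in replicate 1 only were at Pira2 (fold 8.22), Lilra6 (3.74), Pilrb1 (3.74) and Pilrb2 (5.04), which are named here after their values were seen. Pira2, Pilrb1 and Pilrb2 are the other side of the alignments with Pirb and Pilra, and their values, like those of Lilr4b, are uncertain for the same reason. Lilra6 was not aligned with any gene of the set, so whether its value shares this uncertainty was not checked.

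Downstream signalling genes were marked almost throughout. Of 17 genes for phosphatases, kinases and adaptors of inhibitory signalling, 15 were marked in both replicates, against the 49.5% of all coding genes, and Fgr and Src, both Src-family kinase genes, in replicate 1 only. By their means the widest domains were at Rasa1, a Ras GTPase-activating protein gene (4393 and 2985 bp, mean 3689 ± 996 bp, SD, n = 2), Csk (4534 and 2445 bp) and Grb2 (3884 and 3073 bp). These means differed by less than the SD of any of the 3, and Rasa1 was widest in neither replicate. All 3 adaptor genes of the activating partners, Tyrobp, Fcer1g and Hcst, were marked. Of 18 other inhibitory receptors 10 were marked in both replicates, or 55.6%, near the 49.5% of all coding genes. Pecam1 and Milr1 shared 1 domain (2219 and 1856 bp), so the 10 held 9 distinct domains. By their means the widest domains were at Vsir (4675 and 2256 bp), Fcgr2b, the inhibitory Fc receptor gene (3711 and 2229 bp), and Clec12a (3083 and 2740 bp). In replicate 2, however, Clec12a was wider than both Vsir and Fcgr2b. Ceacam1 was marked in replicate 1 only, and 7 in neither, among them Btla, Cd22 and Cd5.

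The ligand genes were marked about as often as coding genes in general. Of 16 ligand genes found in the annotation 9 were marked in both replicates, 1 in replicate 1 only and 6 in neither. B2m, the invariant chain of MHC class I, had domains of 5193 and 4268 bp (mean 4730.5 ± 654 bp, SD, n = 2), and Rtn4 and C1qb followed. Cd200, which encodes the ligand of the CD200 receptor, was marked with domains of 743 and 532 bp and folds of 7.1 and 3.58, and was named after its values were seen. The collagen genes Col17a1 and Col1a1, and Clec4g, were marked in neither.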

How the data were processed

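H3K4me3 chromatin immunoprecipitation and sequencing of 2 replicates was analysed from 4 peak lists on mm10. Per the provenance texts deposited with them, the authors called pseudoreplicated peaks on each replicate and on both together (pooled), and derived a replicated list from both. The deposited columns used were, for each peak, a fold (a ratio whose denominator is not stated there), −log10 p and −log10 q values, and a summit. The deposited display score was not used. The aligner and peak caller were not given in the sources used here, nor were thresholds. Depth is unknown, so no precision from depth is given.

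Starts were those of every GENCODE M21 transcript on 21 chromosomes, and sequence came from GRCm38.p6. No peak end lay beyond a chromosome. A gene was marked when a peak overlapped the 1000 bp on either side of a start by at least 1 bp. Percentiles rank folds within a list. Windows of gene copies were aligned with blastn 2.17.0, and the rest was computed in Python 3.11.15 with pandas 2.3.3. The counting of peaks and the joining were tested on simulated data. The set, the gene lists and the windows were chosen with earlier results of these data known. All 10 genes are named, and from each list up to 3 marked genes of widest domain and up to 3 unmarked ones in alphabetical order. Of 116 listed symbols 110 were found in the annotation. With 1 group of 2 replicates no test between conditions exists, and counts of genes are set beside those of all coding genes. Alternatives changed the window, the starts, the peak threshold, the overlap, the joining and the list, or left out each replicate.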

Additional observations from a re-analysis of the deposited data

How the results depend on the processing

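The count of genes marked in both replicates was 8 with windows of 500 or 2500 bp, with starts of protein-coding transcripts alone, under both stricter peak thresholds and with an overlap of 100 bp. It was 9 in the authors' pooled and replicated lists, which add Pilra. It was 6 with a single start per gene, its 5′ end, which loses Cd33 and Cd47, and 8 to 9 with either replicate left out. At 10 kb the counts were the same, and 9 at 20 kb, where the peak at Ctu1 falls in the window of Siglece.

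The median domain width, taken over the means of the 8 genes, was 3135.5 bp. The medians of the 2 replicates over the same 8 genes, 3464.5 and 2646.5 bp, had an SD of 578 bp. The median was 2990.2 bp with the 15000 peaks of highest −log10 p and 2733.5 bp with no joining. Over other sets of genes it was 2941.5 bp with the 5′ end alone (6 genes) and 2784 bp in both lists of the whole series (9 genes). Leaving out replicate 1 gave 2646.5 bp over 8 genes, and leaving out replicate 2 gave 2834 bp over 9. Pilra, the gene added in the sets of 9, had 958 bp in both lists and 874 bp in replicate 1. Medians over 6 or 9 genes are not directly comparable with that over 8. With no joining Pirb had 974 bp and Cd47 3128 bp, which moved both by over 1.5 times and put Cd47 after Lilrb4a and Cd200r1. No paired analysis was possible because there is 1 group. Unknown depth limits the reading of Pilra and Siglece: a peak missing from a list does not show that the mark is absent.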

Other observations

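The folds in the lists take few distinct values: 1905 among the 20031 peaks of replicate 1, or 9.51%, and 1430 among the 16376 of replicate 2, or 8.73%. Ties occurred among the peaks of the set, and whether they reflect equal enrichment was not tested. Pirb and Siglec1 had the same highest fold in replicate 2, 5.22, with the same −log10 q of 15.3, and differed in replicate 1, with 13.3 and 15.3. The 2 short peaks upstream at Sirpa in replicate 1 shared the fold 5.98 and the −log10 q 14.6.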
